A study of Ovis aries with 32 samples.

Results

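The 10 regulators of fat cell formation described here were picked by gene symbol from the count table of a sheep study: the first-wave factors CEBPB and CEBPD, the core factors PPARG, its partner RXRA and CEBPA, the Krueppel-like factors KLF5, KLF9 and KLF15, and the commitment and differentiation genes ZNF423 and MEDAG. All 10 were present among the 28524 genes of the table. Of the 10, 7 had enough reads for testing, and CEBPA, CEBPB and KLF5 were near the detection limit.

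The messenger RNA of 4 fat depots was read at its 3′ ends in 8 adult female sheep, 4 born to control mothers and 4 born to mothers injected with testosterone, a model of polycystic ovary syndrome. Mothers in the treated arm received testosterone propionate (100 mg, or 1.2 mg/kg, in 2 ml corn oil, 2 injections per week) between gestational days 30 and 90. Every daughter, control or exposed, was ovariectomized after her second breeding season and carried the same hormone replacement: a 1-cm estradiol implant, progesterone implants for 14 days, and then 4 estradiol implants of 30 mm for 18 h before death. A mother gave at most 1 daughter to a group, so the 4 sheep of an arm are separate animals, and all were kept together on a maintenance diet. Fat was visceral (mesenteric), subcutaneous (sternal), perirenal or epicardial, and each sheep gave all 4 depots, which makes 8 groups of 4 libraries. The control sheep carry the numbers 98, 131, 132 and 201 and the testosterone sheep 48, 185, 233 and 255. Wherever 4 values of a group are listed, they stand in that order.

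Fat cells form in waves. C/EBP beta and C/EBP delta are switched on early by hormonal signals and help to turn on PPAR gamma and C/EBP alpha, which maintain each other and activate the genes of the mature adipocyte. PPAR gamma binds DNA as a pair with a retinoid X receptor, several Krueppel-like factors act along the same path, ZNF423 (Zfp423 in mice) marks committed preadipocytes, and MEDAG (mesenteric estrogen-dependent adipogenesis) promotes differentiation of preadipocytes in culture.

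Library totals ran from 784135 reads in the subcutaneous library of sheep 48 to 8267824. Levels are in CPM, read counts scaled to a common library size with a correction for composition, and are given as mean ± SD with n = 4 sheep. Adipocyte markers (7 genes) summed to 9593 to 54240 CPM. In controls they summed to 9593 to 24063 CPM in epicardial fat and to 27425 to 54240 CPM in the other depots, with no overlap. The sum is a plain total of CPM, and not every gene in it followed that order. LPL, which is among them, was higher in epicardial than in subcutaneous controls (values below). Some libraries stood apart. A set of 4 intron-retaining nuclear transcripts that includes ARGLU1 summed to 39146 CPM in subcutaneous fat of sheep 48 and 32541 CPM in visceral fat of sheep 255 against 1171 to 9880 CPM in the others. Cardiac muscle markers (11 genes) summed to 13299 and 22322 CPM in epicardial fat of sheep 98 and 48, to 18.6 to 3163 CPM in the other epicardial libraries and to at most 101 CPM elsewhere. HOXC6, a positional gene, was at 94.6 CPM in the library labelled epicardial fat of sheep 255, at 0 to 2.21 CPM in the other epicardial libraries and at 74.4 to 113 CPM in visceral fat, so this library goes against its label. Values without these 5 libraries are given where they changed a call or moved a value named here. In these bulk samples, fewer cells of a type and less RNA per cell cannot be told apart.

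CEBPA, CEBPB and KLF5 had next to no reads. CEBPA, which sustains the adipocyte state together with PPARG, had 113 reads in all, at most 11 in any library, or 0.671 CPM over the pooled libraries (exact 95% Poisson interval 0.553 to 0.807, counting error only). CEBPB had 17 reads in 11 of the 32 libraries (0.101 CPM, interval 0.0588 to 0.162). KLF5, an early activator of the PPARG promoter, had 10 reads in 9 libraries (0.0594 CPM, interval 0.0285 to 0.109). On pooled reads CEBPA was at 0.356 CPM in visceral testosterone libraries (8 reads, interval 0.153 to 0.701) and 0.879 in visceral controls (24 reads, interval 0.563 to 1.31). It was at 0.372 CPM in epicardial testosterone libraries (5 reads, interval 0.121 to 0.869). These intervals overlap, which is no test of a difference, and they leave out the spread between sheep. CEBPB had 0 reads in visceral testosterone and in subcutaneous control libraries, where 3 reads of the total, the limit that a count of 0 allows, correspond to 0.133 and 0.173 CPM. Reads at 3′ ends are counted only where the annotation places the end of a transcript, and the sources used here do not give the annotation. The values are therefore levels as counted, and no evidence that a gene was silent. The low members were left out of the tests except CEBPA in counts summed over the depots of a sheep.

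**Figure D1:**
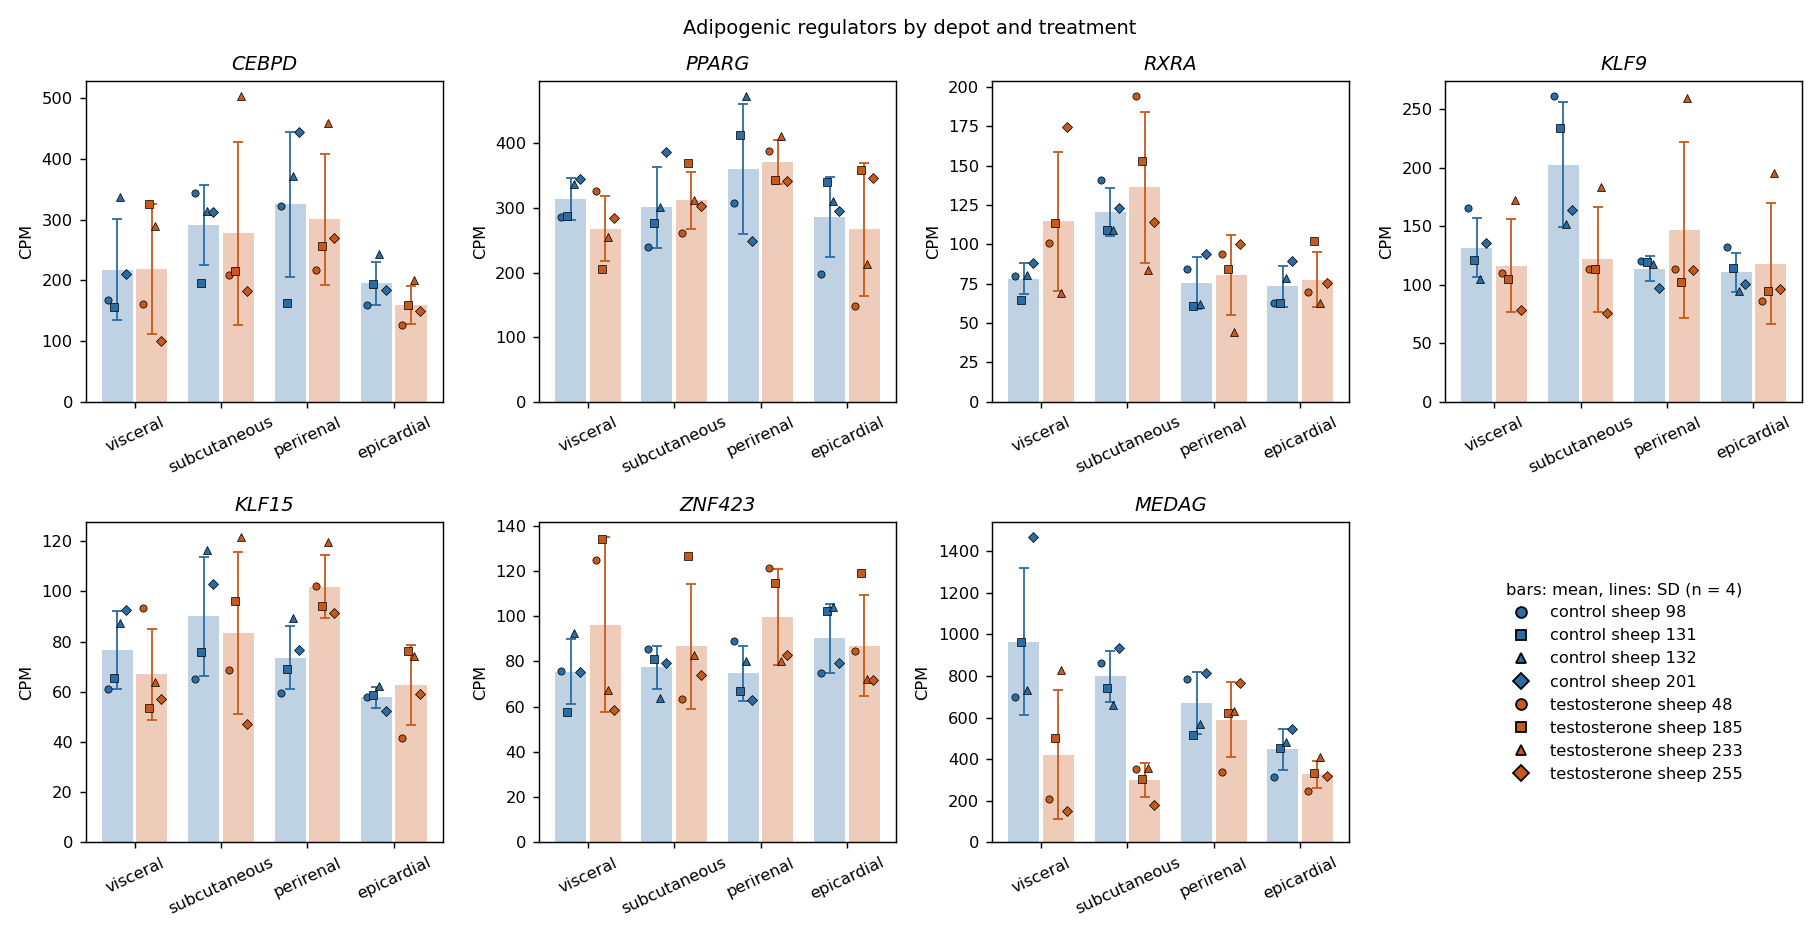
CPM of the 7 regulators with enough reads, by depot (horizontal axis) and treatment (colour). Bars are means, lines are SD (n = 4) and symbols are single sheep. Within a depot, the symbols of the colours do not overlap for MEDAG in subcutaneous and KLF15 in perirenal fat.

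The first question was whether the regulators differ between depots of the same animal. In control sheep, 5 of 7 did in a joint test over the 4 depots: CEBPD, RXRA, KLF9, KLF15 and MEDAG, where 39.9% of the 13369 genes tested were called at an FDR (Benjamini-Hochberg adjusted p, edgeR quasi-likelihood test) under 0.05. PPARG (FDR = 0.369) and ZNF423 (FDR = 0.399) did not pass. In testosterone sheep 0 of 7 passed, beside 4.82% of 13411 genes, and 2 members had an unadjusted p under 0.05, CEBPD and RXRA, as did 23.1% of genes. DESeq2 called 1 of the 7 there, RXRA (adjusted p = 0.0377). Fewer genes passing in one arm does not show that the depot differences themselves changed, which the depot-by-treatment test addresses. Below, some members are described by depot values without overlap or by the same direction in every sheep. The shares of all genes with such patterns between depots were not counted, so these are descriptions and not traits particular to the members.

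CEBPD, the early factor with enough reads, had its highest mean in perirenal and its lowest in epicardial fat. Perirenal levels in controls were 323, 162, 372 and 444 CPM (325 ± 120). Epicardial levels were 159, 194, 244 and 184 CPM (195 ± 35.5). Sheep 131 was the exception, with a perirenal value under its own epicardial value and within the epicardial range. The difference between these depots was 0.66 log2 units (SE 0.21, FDR = 0.0281), in a contrast that called 2 of 7 members (CEBPD and MEDAG) and 25.2% of all genes. It did not pass without sheep 98 (FDR = 0.118), 132 (FDR = 0.0624) or 201 (FDR = 0.205), or without the epicardial library of sheep 98 (0.57, FDR = 0.0915). In visceral and subcutaneous fat CEBPD stood at 218 ± 82.7 and 292 ± 65.8 CPM, and subcutaneous exceeded epicardial fat in 8 of 8 sheep over both treatments, sheep 255 with its doubtful epicardial library included. The adipocyte marker sums of epicardial controls were lower as well, and over the 32 libraries CEBPD followed these sums (r = 0.62, and 0.53 for deviations from group means). Visceral controls had sums of 32257 to 54240 CPM, and visceral minus epicardial CEBPD was 0.09 (SE 0.21, FDR = 0.790). The part of the adipocyte marker sums in the CEBPD values was not tested. Subcutaneous minus perirenal fat was at -0.11 in controls (SE 0.21, FDR = 0.723). In testosterone sheep the perirenal minus epicardial difference was 0.90 (SE 0.27, FDR = 0.0893). The joint call in controls was lost without sheep 98 (FDR = 0.201) or sheep 201 (FDR = 0.223), and without the epicardial library of sheep 98, rich in cardiac markers (FDR = 0.0718).

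PPARG, the receptor on which adipocyte formation depends, did not differ between depots past the test. Its control means were 314 ± 31.9 CPM for the visceral depot, 301 ± 62.8 for the subcutaneous, 360 ± 101 for the perirenal and 286 ± 61.9 for the epicardial one. Perirenal fat of single controls spanned 308, 412, 473 and 249 CPM, wider than the distance between any of these means. The largest control contrast, perirenal minus epicardial, was 0.34 log2 units (SE 0.18, FDR = 0.165), and in testosterone sheep it was 0.53 (SE 0.26, FDR = 0.243). Subcutaneous minus perirenal fat was -0.26 (FDR = 0.310) in controls, and without sheep 201, the control with the lowest perirenal PPARG, it was -0.54 and passed (FDR = 0.0395). The lowest PPARG values of all 32 libraries were 149 CPM in epicardial fat of sheep 48 and 197 CPM in epicardial fat of sheep 98, which are the libraries with the most cardiac muscle RNA. Over the 32 libraries log2 CPM of PPARG followed the summed adipocyte markers (r = 0.66) and ran opposite to the cardiac markers (r = -0.60). These r describe libraries that share animals and depots, and the part of other cells in the PPARG levels was not tested.

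RXRA, the retinoid X receptor that pairs with PPAR gamma, was highest in subcutaneous fat. Control levels there were 141, 109, 109 and 123 CPM (121 ± 14.9). Visceral levels were 79.7, 64.5, 80.2 and 88.3 CPM (78.2 ± 9.93), and perirenal and epicardial means were 75.3 ± 16.5 and 73.3 ± 13.1 CPM. Every subcutaneous control value lay above all 12 values of the other depots, whose means differed by less than their spread. Subcutaneous fat exceeded visceral fat by 0.63 log2 units (SE 0.14, FDR = 0.0060), in a contrast that called 2 of 7 members (RXRA and KLF9) and 14% of all genes. It exceeded perirenal fat by 0.69 (SE 0.14, FDR = 0.0019), where again RXRA and KLF9 were the members called, beside 23.6% of genes. It exceeded epicardial fat by 0.72 (SE 0.14, FDR = 0.0012), where 4 of 7 members (RXRA, KLF9, KLF15 and MEDAG) and 23.1% of genes were called. The joint call in controls held under each alternative fit run. The list of 4 nuclear transcripts moved with part of this: in controls it summed to 2635 to 3890 CPM in subcutaneous, 1389 to 1986 in perirenal, 1394 to 3843 in visceral and 2496 to 4093 in epicardial fat. All 4 of its genes were called higher in subcutaneous than in perirenal fat, 2 higher than in visceral fat and 0 against epicardial fat. T and NK cell markers summed to 11.0 to 24.6 CPM in subcutaneous controls and to at least 40.7 CPM in the other control depots. Mesothelial markers summed to 9.45 to 35.1 CPM and at least 78.4 CPM. The part of these lists in the RXRA values was not tested. In testosterone sheep subcutaneous RXRA was 194, 153, 83.7 and 114 CPM and perirenal RXRA 94.2, 84.5, 44 and 100.0 CPM. The subcutaneous excess there was 0.76 over perirenal (SE 0.24, FDR = 0.109) and 0.78 over epicardial fat (SE 0.24, FDR = 0.0857). Both passed in DESeq2 (adjusted p = 0.0399 and 0.0474). RXRA was higher in subcutaneous fat than in either of them in 8 of 8 sheep, sheep 255 with its doubtful epicardial library included.

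KLF9, a Krueppel-like factor induced by glucocorticoids and other nuclear receptor ligands, had the smallest joint FDR among the members (0.00038). In subcutaneous fat of controls it stood at 261, 234, 152 and 164 CPM (203 ± 53.2). Perirenal values were 120, 120, 118 and 97.4 CPM (114 ± 11), and visceral and epicardial means were 132 ± 25.6 and 111 ± 16.6 CPM. Subcutaneous and perirenal values did not overlap, and subcutaneous was the highest depot in each of the 4 controls. The subcutaneous excess was 0.60 log2 units over visceral (SE 0.14, FDR = 0.0086), 0.80 over perirenal (SE 0.14, FDR = 0.00083) and 0.85 over epicardial fat (SE 0.14, FDR = 0.00032). In testosterone sheep subcutaneous KLF9 was 113, 114, 184 and 75.9 CPM, and the subcutaneous minus perirenal difference was -0.25 (SE 0.19, FDR = 0.478), with 1 of 4 sheep higher in subcutaneous fat. Without sheep 131 neither KLF9 (FDR = 0.104) nor RXRA (FDR = 0.0628) passed between visceral and subcutaneous fat.

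KLF15, which activates PPARG and genes of amino acid and glucose use, was lowest in epicardial fat. Control values there were 57.8, 58.6, 62.3 and 52.4 CPM (57.8 ± 4.11), the tightest of the KLF15 groups. In subcutaneous fat they were 65.2, 75.7, 117 and 103 CPM (90.1 ± 23.7), all above the epicardial values. Between those depots the difference was 0.60 log2 units (SE 0.14, FDR = 0.0054), and it did not pass without sheep 132 (FDR = 0.0567) or 201 (FDR = 0.0540). Visceral and perirenal means lay between, at 76.7 ± 15.6 and 73.6 ± 12.5 CPM, and perirenal exceeded epicardial fat in 8 of 8 sheep of both treatments, sheep 255 included. Without the epicardial library of sheep 98, KLF15 also passed for visceral minus epicardial (0.50, FDR = 0.0279) and perirenal minus epicardial fat (0.44, FDR = 0.0422). The adipocyte marker sums, lower in epicardial controls, go with KLF15 here, and their part was not tested. The joint call was lost without sheep 131 (FDR = 0.0531), 132 (FDR = 0.134) or 201 (FDR = 0.145).

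ZNF423, a zinc finger protein of preadipocyte commitment, showed no depot difference past the test. Its control means ran from 74.8 ± 12.1 CPM in perirenal to 90.2 ± 15.2 CPM in epicardial fat, and single controls from 57.6 CPM (visceral, sheep 131) to 104 CPM (epicardial, sheep 132). In testosterone sheep visceral values were 125, 134, 67.5 and 58.7 CPM, the widest spread of any ZNF423 group. The largest control contrast was -0.28 log2 units for perirenal minus epicardial fat (SE 0.17, FDR = 0.227). Depots of ZNF423 could therefore not be ordered beyond their spread.

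MEDAG was the member with the widest range between depots. Visceral controls stood at 697, 965, 734 and 1469 CPM (966 ± 355). Subcutaneous controls were at 863, 741, 659 and 934 CPM (799 ± 123). Perirenal controls were at 784, 517, 569 and 813 CPM (671 ± 150). Epicardial controls were lowest, at 313, 453, 481 and 548 CPM (449 ± 98.8), and only the perirenal range overlapped with theirs. Epicardial fat was below visceral by 1.06 log2 units (SE 0.19, FDR = 0.00068), in a contrast that called 1 of 7 members and 21.9% of genes. It was also below subcutaneous fat by 0.83 (SE 0.19, FDR = 0.0038) and below perirenal by 0.58 (SE 0.19, FDR = 0.0308). The last call was lost without sheep 98 (0.33, FDR = 0.184), without the epicardial library of that sheep alone, which held much cardiac RNA (0.42, FDR = 0.120), and without sheep 201 (0.58, FDR = 0.0858). The adipocyte marker sums are lower in epicardial controls as well, and their part in the MEDAG values was not tested. Visceral and perirenal fat, the contrast with the fewest calls (0.613% of genes), showed 0 of 7 members past the threshold in edgeR and in DESeq2, and 2 with an unadjusted p under 0.05 (12.7% of genes). MEDAG was at 0.49 there (SE 0.18, FDR = 0.274).

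**Figure D2:**
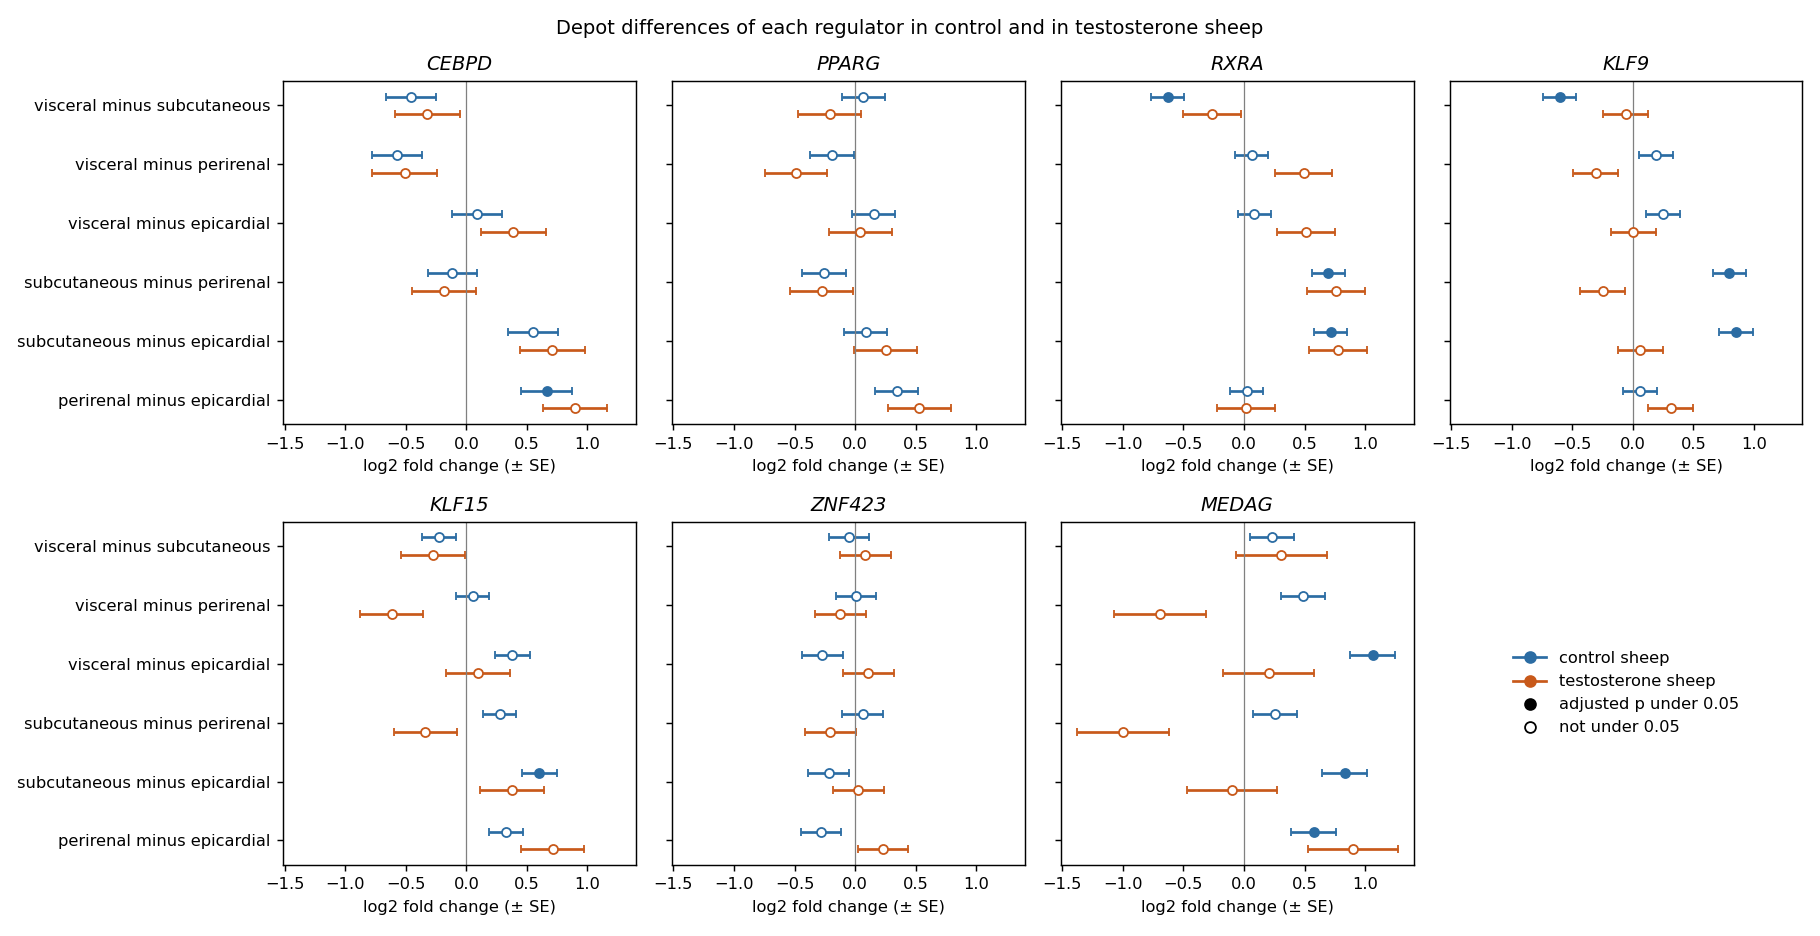
Log2 fold change between each pair of depots (± SE) for the 7 regulators in control and testosterone sheep, filled where the adjusted p was under 0.05. All filled points belong to control sheep, RXRA lies at 0.69 and 0.76 in the 2 arms for subcutaneous minus perirenal fat, and KLF9 at 0.80 and -0.25.

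In testosterone sheep the pairwise tests called 0 of 7 members in each of the 6 contrasts, where 0.664% (visceral and subcutaneous), 0.082% (visceral and perirenal), 1.66% (visceral and epicardial), 2.23% (subcutaneous and perirenal), 4.5% (subcutaneous and epicardial) and 1.82% (perirenal and epicardial) of genes passed. At an unadjusted p under 0.05 the members numbered 0, 1, 0, 2, 2 and 3 in that order, beside 11.1%, 12.1%, 14.9%, 19.8%, 17.8% and 22.2% of genes, and DESeq2 called 1 in each of the last 3 contrasts (RXRA, RXRA and CEBPD). MEDAG differed between subcutaneous and perirenal fat there by -0.9997 (SE 0.38, FDR = 0.164), with 1 of 4 testosterone sheep higher in subcutaneous fat against 4 of 4 controls. Without the libraries that stood apart this contrast passed (-1.39, FDR = 0.00487), as did perirenal minus epicardial fat for MEDAG (1.07, FDR = 0.0236) and CEBPD (1.07, FDR = 0.0213).

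The main question of the design was what prenatal testosterone changed in each depot. At an FDR under 0.05, edgeR called 0 of 7 members in each of the 4 depots, beside 0% of all genes (0 of 12860 visceral, 12166 subcutaneous, 12872 perirenal and 12793 epicardial genes). The shares of all genes with an unadjusted p under 0.05 were 9.42%, 5.11%, 5.37% and 5.65% in the same depot order, and the members numbered 1, 2, 2 and 0. In DESeq2, 21, 12, 10 and 11 genes passed in these depots, with 1 member among them, MEDAG in subcutaneous fat.

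MEDAG in subcutaneous fat gave the largest log2 fold change of any member between treatments. Control values there were 863, 741, 659 and 934 CPM, and testosterone values were 354, 307, 356 and 180 CPM (299 ± 83). The highest testosterone sheep was below the lowest control. Treatment groups did not overlap in 2 of 28 pairs of member and depot, this one and KLF15 in perirenal fat, while 5.59% of visceral, 3.35% of subcutaneous, 3% of perirenal and 3.7% of epicardial genes had groups that did not overlap. In subcutaneous fat 1.79% of genes had every testosterone library below every control. The difference was -1.40 log2 units (SE 0.25, unadjusted p = 0.000157, FDR = 0.903). This p was the 2nd smallest of 12166, behind that of the elastin gene ELN (FDR = 0.0562). DESeq2 gave -1.40 with an adjusted p of 0.00067. Leaving out 1 sheep at a time moved the value between -1.497 and -1.22, and the lower end came without sheep 48, whose library was the shallowest and rich in nuclear transcripts (FDR = 0.287).

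In visceral fat MEDAG was at 209, 500, 829 and 153 CPM in testosterone sheep (423 ± 311). Sheep 233 lay within the control range of 697 to 1469 CPM and the other 3 below it. The difference was -1.20 (SE 0.49, FDR = 0.521), and it was -0.93 (FDR = 0.740) without sheep 255, the visceral library rich in nuclear transcripts, and -1.77 (FDR = 0.188) without sheep 233. Over all 32 libraries MEDAG ran opposite to the nuclear transcripts (r = -0.59), whose part in its levels was not tested. Adipocyte marker sums in visceral fat were 32257 to 54240 CPM in controls and 10218 to 31094 CPM in testosterone sheep, without overlap. In the other depots these sums overlapped between treatments. MEDAG followed the sums over all libraries (r = 0.54), and their part in its levels was not tested. Perirenal values of testosterone sheep, at 339, 623, 631 and 767 CPM, overlapped with the controls (-0.18, SE 0.25, FDR = 0.991). Epicardial values were 249, 332, 411 and 318 CPM against a control range of 313 to 548 CPM (-0.45, SE 0.21, FDR = 0.863). With the 4 depots of a sheep added up, MEDAG was at 697, 673, 617 and 963 CPM in controls and 268, 464, 587 and 420 CPM in testosterone sheep, and these did not overlap. MEDAG was 1 of 8 members without overlap of the sums, beside 3.65% of genes. That difference was -0.76 (SE 0.23, unadjusted p = 0.00799, FDR = 0.652), where 0.00654% of 15301 genes passed. Of 8 members, CEBPA included (-0.58, SE 0.38, FDR = 0.839), 0 passed in edgeR or DESeq2, and MEDAG alone had an unadjusted p under 0.05, as did 6.8% of genes.

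KLF15 was the other member whose treatment groups did not overlap, in perirenal fat and in the opposite direction. Perirenal controls were at 59.7, 68.9, 89.3 and 76.7 CPM. Testosterone sheep were at 102, 94.4, 120 and 91.4 CPM (102 ± 12.6), each above the highest control. Among all perirenal genes 1.37% had every testosterone library above every control. The difference was 0.46 log2 units (SE 0.17, unadjusted p = 0.0180, FDR = 0.914). In the same comparison 5 of 7 smooth muscle markers had an unadjusted p under 0.05 and 0 passed, with a median of -1.80 and sums of 854 to 1832 CPM in controls and 494 to 1151 CPM in testosterone sheep. Their part in the KLF15 values was not tested. ZNF423 in perirenal fat was at 121, 115, 80.4 and 82.7 CPM in testosterone sheep and 89.2, 66.9, 80.1 and 62.8 CPM in controls, with overlapping values (0.41, SE 0.19, FDR = 0.926). In the other depots KLF15 was between -0.20 and 0.13 and ZNF423 between -0.04 and 0.34.

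KLF9 did not pass in any depot. Its subcutaneous difference was -0.72 (SE 0.29, unadjusted p = 0.0275, FDR = 0.927), and testosterone values of 75.9 to 184 CPM overlapped with control values of 152 to 261 CPM through sheep 233. Visceral, perirenal and epicardial differences were -0.19, 0.37 and 0.10. Without sheep 233 the perirenal one was -0.07 and the epicardial one -0.25. Without the 3 epicardial libraries that stood apart the epicardial difference was 0.50 (FDR = 0.597) for KLF9 and 0.40 for KLF15 (FDR = 0.507, from 0.13 with them). RXRA in visceral fat had a difference of 0.54 (SE 0.27, FDR = 0.526), at 101, 114, 69.2 and 175 CPM against 64.5 to 88.3 CPM in controls. Without the visceral library of sheep 255, which held the highest of these values, it was 0.25 (FDR = 0.857). RXRA was also highest of all subcutaneous libraries in sheep 48 (194 CPM), the other library rich in nuclear transcripts. Over all 32 libraries it followed that list with r = 0.57. Other lists had larger r of the opposite sign: immediate early genes (-0.67) and T and NK cell (-0.67), progenitor and fibroblast (-0.64) and mesothelial markers (-0.62). The part of any of these lists in the RXRA values was not tested.

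PPARG and CEBPD did not pass between treatments. Visceral PPARG of testosterone sheep was 325, 206, 255 and 284 CPM against 286, 287, 337 and 345 CPM in controls. Adipocyte marker sums in visceral fat were lower in testosterone sheep, and their part in the PPARG values was not tested. The PPARG difference was between -0.23 (SE 0.21, visceral) and 0.06 (SE 0.20, subcutaneous), and on summed counts -0.04 (SE 0.11, FDR = 0.976), at 269 to 369 CPM in controls and 303 to 324 CPM in testosterone sheep. CEBPD was between -0.29 (SE 0.19, epicardial) and 0.00 (SE 0.37, visceral), and its epicardial values in testosterone sheep were 127, 159, 201 and 149 CPM. Single sheep moved CEBPD: without sheep 233 the subcutaneous difference was -0.51 (FDR = 0.609, from -0.06) and that on summed counts -0.30 (FDR = 0.637, from -0.02), and the visceral one ran from -0.24 without sheep 185 to 0.29 without sheep 132. These SE leave room for changes that 4 sheep against 4 cannot resolve.

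**Figure D3:**
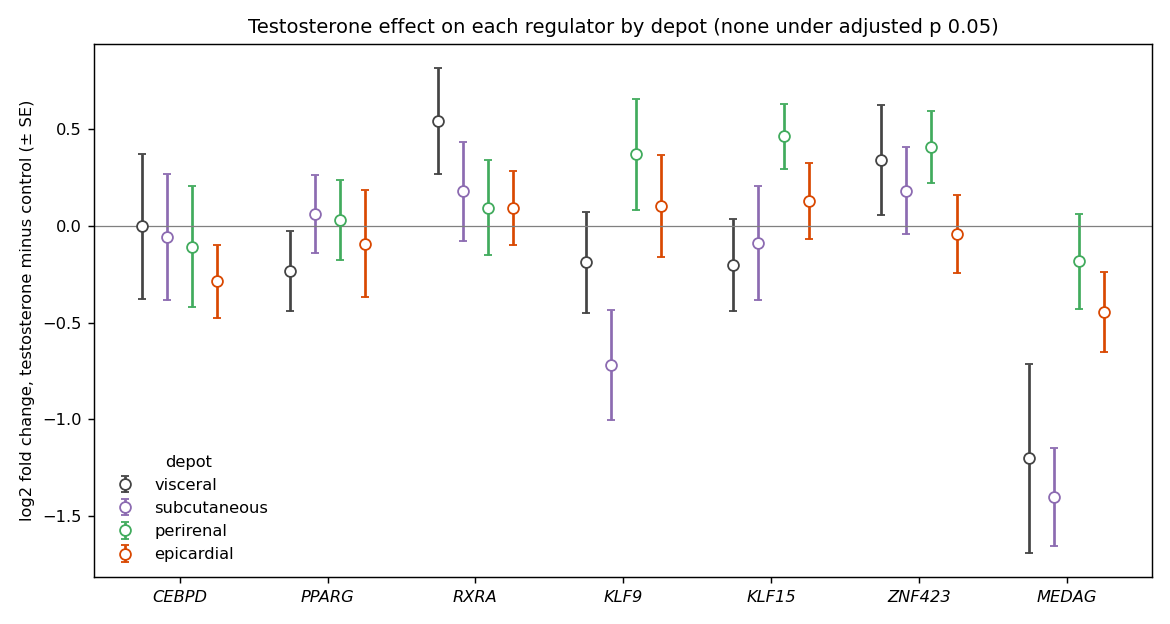
Log2 fold change of testosterone against control sheep (± SE, 4 sheep against 4) for each regulator and depot. MEDAG lies at -1.40 in subcutaneous and -1.20 in visceral fat, KLF9 at -0.72 in subcutaneous and RXRA at 0.54 in visceral fat, and no point passed the test.

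Whether the testosterone effect depended on the depot was tested jointly over all 32 libraries. Here 0 of 7 members passed in edgeR, beside 0.00703% of 14225 genes, and 2 members had an unadjusted p under 0.05. KLF9 ranked 5th of all genes by p (unadjusted p = 0.000551, FDR = 0.932), and DESeq2 called it (adjusted p = 0.0436, with 7 genes called in all). MEDAG came next among the members, at rank 222 of all genes (unadjusted p = 0.0170, FDR = 0.994). The unadjusted p of the remaining 5 members ran from 0.135 for KLF15 to 0.861 for CEBPD, and 4.61% of all genes had an unadjusted p under 0.05.

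Single animals stood apart for some members. KLF9 of sheep 233 was 172 CPM (visceral), 184 (subcutaneous), 259 (perirenal) and 196 (epicardial). The other 3 testosterone sheep were between 75.9 and 114 CPM over the 4 depots. In the same animal RXRA was the lowest of its group in 4 of 4 depots, at 69.2, 83.7, 44 and 63.1 CPM in that depot order. Among the 14225 genes kept over all libraries, sheep 233 was highest of its group in all 4 depots for 1.77% and lowest for 1.53%. Among controls, KLF9 was highest in sheep 98 in 4 of 4 depots, in perirenal fat by under 1 CPM, and MEDAG was highest in sheep 201 in 4 of 4. Some control sheep was highest in all depots for 6.98% of genes.

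Splitting the variation of log2 CPM within each arm into depot, sheep and rest described this further. For KLF9 the depot took 67.9% and the sheep 21.4% in controls, and 5.87% and 85.0% in testosterone sheep. For ZNF423 the sheep took 10.2% in controls and 64.4% in testosterone sheep, where sheep 185 was highest in 3 of 4 depots. For MEDAG the depot share was 62.1% and 28.8%, and for RXRA 67.3% and 37.3%. Sheep shares in controls and in testosterone sheep were 19.3% and 30.5% for MEDAG and 20.1% and 40.4% for RXRA. They were 39.1% and 46.6% for CEBPD, 37.5% and 19.7% for KLF15, and 33.3% and 7.41% for PPARG. Medians over all genes were 41.1% (depot) and 17.6% (sheep) in controls and 28.0% and 20.5% in testosterone sheep. PPARG was mostly in the rest, with 50.9% in controls and 58.9% in testosterone sheep, and no test was made of these shares. The libraries that stood apart were kept in them, and most of those libraries came from testosterone sheep.

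**Figure D4:**
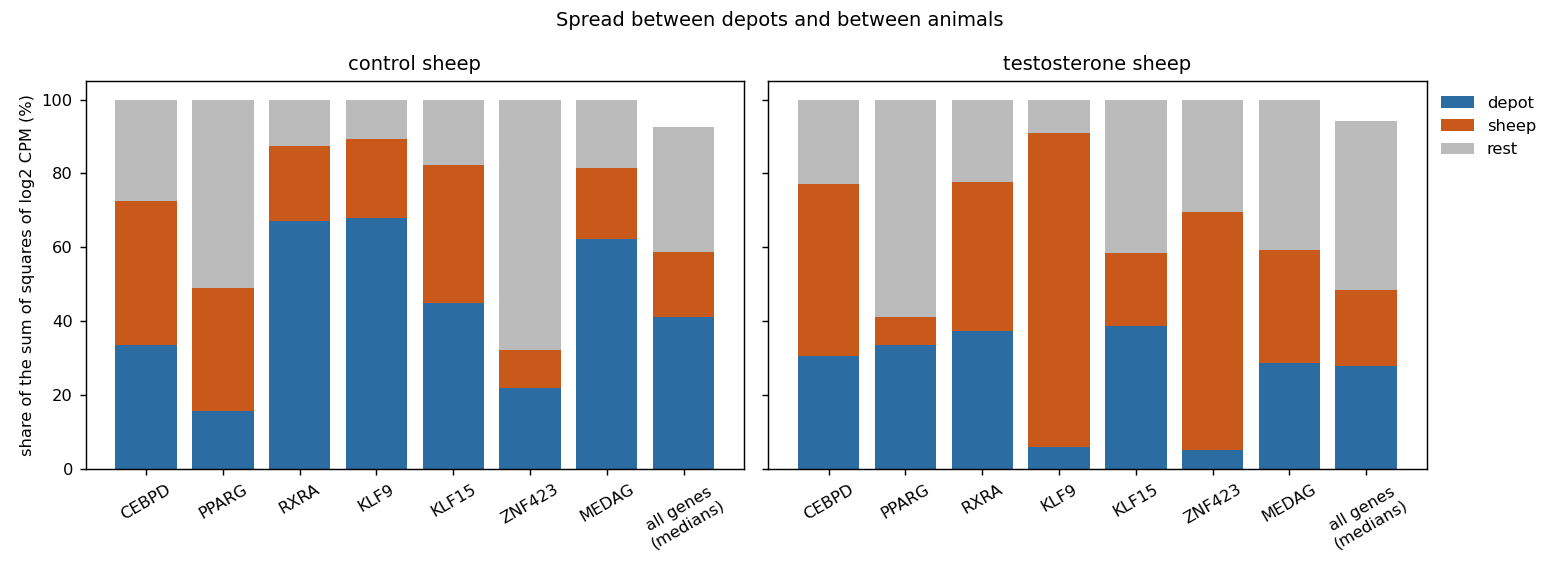
Share of the sum of squares of log2 CPM (%) between depots, between sheep and in the rest, in control (left) and testosterone sheep (right), with medians over all genes kept, which need not sum to 100. KLF9 has 67.9% between depots in controls and 85.0% between sheep in testosterone sheep.

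Genes most like a member were sought by Pearson r of log2 CPM over the 32 libraries among 7999 other genes with symbols, as a description of libraries that share animals. KLF9 was closest to FKBP5 (r = 0.80, and 0.83 for deviations from group means), which codes a glucocorticoid-induced co-chaperone of steroid receptors, and then to ANKH (0.73) and GLUL (0.69). FKBP5 of sheep 233 was 222 CPM (visceral), 255 (subcutaneous), 244 (perirenal) and 287 (epicardial). The other testosterone sheep were at 47.8 to 162 CPM, so that sheep 233 stood above them in each depot for FKBP5 as for KLF9. FKBP5 was picked for its likeness to KLF9 over these same libraries, so this is no separate observation. KLF9 followed the summed glucocorticoid-responsive list with r = 0.62, and a part of glucocorticoids in the KLF9 values was not tested.

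MEDAG was closest to LYVE1 (r = 0.83), which codes a hyaluronan receptor of lymphatic endothelium and of resident macrophages, to ELN (0.80) and to ATG12 (0.77). Deviations of MEDAG from its group means followed the progenitor and fibroblast markers with r = 0.64 and macrophage markers with r = 0.62. Over the libraries themselves r was 0.28 and 0.62. Between control depots, progenitor and fibroblast sums were highest in epicardial fat (3938 to 5200 CPM), where MEDAG was lowest. The part of these markers in the MEDAG values was not tested. RXRA was closest to MAML2 (0.89), a Notch co-activator, TBRG1 (0.87) and AHNAK2 (0.86). CEBPD was closest to SNRPB2 (0.81), TRAF3IP2 (0.76) and EMC7 (0.75), and PPARG to MCCC1 (0.75), a mitochondrial enzyme of leucine breakdown, SNF8 (0.75) and DIP2A (0.73). KLF15 was closest to RGS3 (0.70), C3H12orf45 (0.67) and PLPBP (0.66), and ZNF423 to SLC25A34 (0.79), PJA1 (0.76) and RBMS3 (0.75). Among the members themselves, deviations of KLF9 and RXRA ran opposite (r = -0.61), and those of CEBPD and MEDAG (0.60) and of PPARG and KLF15 (0.52) ran together.

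**Figure D5:**
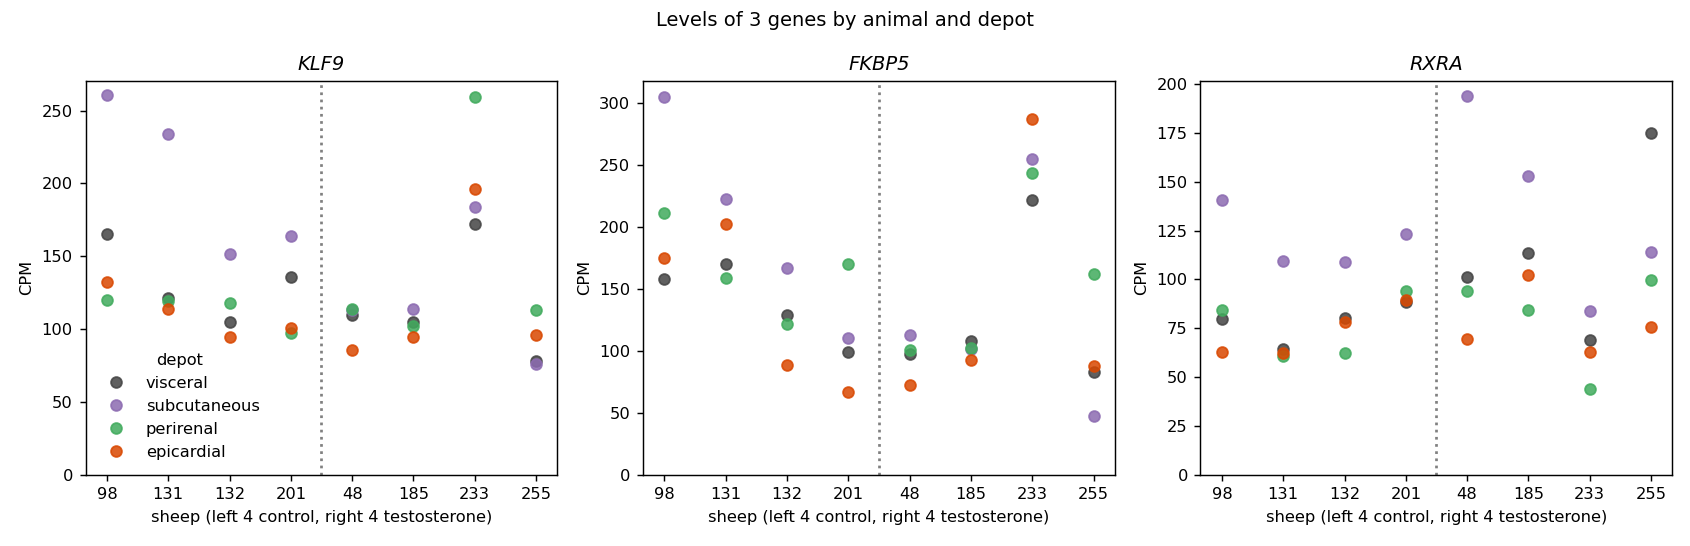
CPM of KLF9, FKBP5 and RXRA in each sheep (horizontal axis) and depot (colour). Sheep 233 is above the other testosterone sheep for KLF9 and FKBP5 and below them for RXRA in all 4 depots.

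Other genes of the adipogenic path were read from lists for comparison. In the joint depot test of control sheep, 13 of 26 tested other activators passed, led by EBF2, which marks brown and beige precursors, at 424 ± 63.4 CPM in epicardial and 121 ± 31.7 in visceral fat (FDR = 1.4e-07), and by PRDM16, a driver of brown fat identity, at 23.3 ± 2.02 in epicardial and 2.35 ± 0.807 in subcutaneous fat. Of the inhibitors, 14 of 24 passed, such as WWTR1 (TAZ), a repressor of PPAR gamma, at 457 ± 162 CPM in visceral and 111 ± 19.4 in epicardial fat. Of the targets of PPAR gamma and C/EBP alpha, 18 of 25 passed: LPL was at 4266 ± 1333 CPM in epicardial and 1123 ± 383 in subcutaneous fat, while CIDEC, a lipid droplet protein, was at 723 ± 19.8 in subcutaneous and 239 ± 79.3 in epicardial fat. Glucocorticoid-responsive genes passed in 7 of 10, led by PER1 (FDR = 8.1e-05). ZBTB16, 1 of them, was highest in subcutaneous fat (687 ± 88.9 CPM against 337 ± 54 in visceral). The list as a whole did not set that depot apart: its control sums were 3095 to 5544 CPM in subcutaneous, 3710 to 5480 in visceral, 3061 to 5054 in perirenal and 2605 to 3589 in epicardial fat. Immediate early genes passed in 8 of 12. The background in that test was the 39.9% given above.

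In testosterone sheep the same lists passed in 3 of 26, 3 of 24, 1 of 25, 1 of 10 and 6 of 12, beside 4.82% of all genes. In the testosterone comparisons 0 genes of these 5 lists passed in any depot in edgeR, and DESeq2 calls were not counted for the lists. Inhibitors with an unadjusted p under 0.05 numbered 4 of 23 (visceral), 3 of 23 (subcutaneous), 5 of 25 (perirenal) and 2 of 24 (epicardial), and the targets 5 of 25 in visceral fat. The other 3 of these lists had at most 2 such genes in a depot, and all genes had shares of 9.42%, 5.11%, 5.37% and 5.65%. Of the marker lists, 3 of 8 endothelial genes (visceral), 3 of 5 T and NK cell genes (subcutaneous), 5 of 7 smooth muscle genes (perirenal) and 3 of 4 nuclear transcripts (epicardial) had such a p, and 0 passed. The nuclear transcripts with such a p numbered 2 of 4 in visceral, 2 of 4 in subcutaneous and 1 of 4 in perirenal fat. The 5 lists' median log2 fold changes in subcutaneous fat were 0.06, 0.06, -0.03, -0.24 and -0.47, beside 0.02 for all genes tested there. In visceral fat the medians were 0.10, 0.33, 0.03, -0.06 and -0.27, beside 0.02 for all genes.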

How the data were processed

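The authors deposited whole-number counts of reads, without normalization, for 32 libraries made with a 3′ mRNA kit from total RNA with an integrity value of at least 7.0, per the labels' protocols. The submitters' processing notes name STAR with featureCounts 1.6.1, DESeq2 1.24.0, R 3.6.3, Trimmomatic 0.36, FastQC 0.11.5 and MultiQC 0.9, with no role or order. The genome build, the annotation and the use of strand were not given in the sources used here. Without strand, reads from overlapping or antisense genes cannot be told apart. Of 28524 genes, 6247 had no count.

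CPM values and tests come from edgeR 4.0.16, run in R 4.3.3 (TMM factors 0.882 to 1.11, filterByExpr with a minimum count of 10, robust quasi-likelihood fit, Benjamini-Hochberg adjustment over all genes tested, threshold 0.05). The SE was taken from each log2 fold change and its F statistic. Depots were compared within each treatment with the sheep as a block, since the 4 depots came from the same animals: 41 of 48 same-sheep correlations of deviations from group means were over 0.1 (mean 0.230, from -0.118 to 0.481). Testosterone was tested on the 8 libraries of a depot and on counts summed per sheep, and the depot-by-treatment terms on all 32 libraries with the block. Of 48 replicate pairs 0 were identical, and their chi-square per degree of freedom was at least 11.0. Alternatives were DESeq2 1.42.0, limma 3.58.1 (voom), other scaling, filters, blocks and left-out sheep or libraries. Scripts were tested on simulated data.

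Likeness used log2 CPM (prior count 2) of genes with a mean of at least 10 CPM, naming 3 per member. From other lists, leading genes are those with the smallest adjusted p in the joint depot test of controls, up to 4 a list. Members and lists were chosen with earlier results of these data known. Intervals and floors (3 counts) cover counting error only.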

Additional observations from a re-analysis of the deposited data

Results flagged for a closer look

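Of 56 sets of 4 libraries (7 members in 8 groups), 4 held a library far from the other 3 by the gap relative to the range of its group, a test that chance alone trips in about 1 in 20 groups. KLF9 of sheep 233 was such a value in perirenal fat (259 CPM, the others at 102 to 114) and in epicardial fat (196 CPM, the others at 85.8 to 96.3). CEBPD of the same sheep was such a value in subcutaneous fat (503 CPM, the others at 183 to 215). KLF9 of control sheep 201 was such a value in perirenal fat, on the low side (97.4 CPM, the others at 118 to 120).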

How the results depend on the processing

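The number of members called between depots in controls was 5, and 3 with no replicate block, 2 in a fit of all 32 libraries with the block and 3 to 4 leaving out 1 sheep at a time (3 without sheep 201). Because the sheep gave every depot, the pairing is by design. With no replicate block CEBPD (FDR = 0.129) and KLF15 (FDR = 0.0733) did not pass jointly, nor did CEBPD and MEDAG between perirenal and epicardial fat (FDR = 0.0803 and 0.0875, and 0.0717 and 0.204 with all 32 libraries). With all 32 libraries and the block CEBPD (FDR = 0.0884), KLF15 (FDR = 0.153) and MEDAG (FDR = 0.0537) did not pass jointly, nor did RXRA between visceral and subcutaneous fat (FDR = 0.0506), nor KLF15 (FDR = 0.0518) and MEDAG (FDR = 0.0636) between subcutaneous and epicardial fat. Between depots in testosterone sheep it was 0, and 1 in DESeq2 (RXRA), 1 in the fit of all 32 libraries with the replicate block (RXRA, FDR = 0.0109) and 1 without the libraries that stand apart (MEDAG, FDR = 0.00707). For testosterone in subcutaneous fat 0 became 1 in DESeq2 (MEDAG), and for the depot-by-treatment test 0 became 1 in DESeq2 (KLF9). The other testosterone counts of members were 0 under every alternative run. Calls gained in testosterone sheep with all 32 libraries and the block were RXRA between subcutaneous and perirenal (FDR = 0.0174) and epicardial fat (FDR = 0.0136), MEDAG between subcutaneous and perirenal fat (FDR = 0.0466), and CEBPD (FDR = 0.0232) and KLF15 (FDR = 0.0334) between perirenal and epicardial fat, where CEBPD also passed in DESeq2 (0.0299) and without sheep 255 (FDR = 0.0388). In controls CEBPD between subcutaneous and epicardial fat passed in DESeq2 (0.0495) and without sheep 131 (FDR = 0.0207), and KLF15 between visceral and epicardial fat in DESeq2 (0.0480) and without sheep 98 (FDR = 0.0450). The causes were not tested.

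Of 1300 member log2 fold changes under an alternative, 92 had the opposite sign of the main value, 0 of them a called one, and the largest main value among them was 0.37 in size. Over all genes, calls between depots in controls went from 5330 to 3498 with all 32 libraries and 3372 without sheep 131. In testosterone sheep 647 became 1855 in DESeq2, 2584 with all 32 libraries, 2180 without the libraries apart and 95 to 1422 leaving out a sheep. On summed counts 1 gene became 5 without the filter, 61 in DESeq2, 15 in limma voom and 0 to 4 leaving out a sheep. The depot-by-treatment test went from 1 to 7 in DESeq2, 0 with no replicate block, 3 without the libraries apart and 0 to 1 leaving out a sheep. For testosterone by depot, 0 became 21 (visceral), 12 (subcutaneous), 10 (perirenal) and 11 (epicardial) in DESeq2, 3 in visceral fat with all 32 libraries, 1 in subcutaneous fat without the filter or without sheep 185, and 1 in epicardial fat without the libraries apart. Pairs of depots in controls, visceral with subcutaneous, perirenal and epicardial, ranged over 756 to 2210, 30 to 255 and 1726 to 3150 genes, subcutaneous with perirenal and epicardial over 1794 to 3391 and 2105 to 3337, and perirenal with epicardial over 1903 to 3603. In testosterone sheep the same pairs ranged over 19 to 355, 0 to 137, 1 to 1180, 43 to 1316, 110 to 1418 and 9 to 2243.

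The low counts of CEBPA, CEBPB and KLF5 limit what can be said of them, whatever their cause, which was not tested. Depth limits sheep 48 in subcutaneous fat. With 4 sheep per arm and 3′ reads of unknown annotation, levels of different genes are not compared.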
